A study of Mus musculus with 2 samples.

Results

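The genes described here are 34 transcripts that mark the cells lining blood and lymphatic vessels, measured in alveolar type 2 cells (type II pneumocytes, the surfactant-making epithelial cells of the lung) of mice. They were chosen by name, as 34 of the 24369 gene rows in the deposited table, and every name matched 1 row. There were 2 libraries of total RNA, 1 from postnatal day 28 (P28) and 1 from postnatal day 7 (P7, written P07 in the labels). Both came from wild-type (WT) C57BL6 mice born to timed pregnant females, and the labels name no treatment beyond dissection of the lungs. How the type 2 cells were isolated, and how many animals went into a library, is not stated in the labels. The comparison made here is of the level of each endothelial transcript in the epithelial preparation at P28 and at P7.

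Endothelial cells form the inner wall of all vessels. Their identity is set by factors of the ETS and SOX families, they are held together by VE-cadherin junctions, and they grow and survive under VEGF and angiopoietin signals. In the alveolus the capillaries lie against type 2 and type 1 cells. Single-cell studies of mouse lung divide them into general capillary cells, which act as progenitors, and aerocytes, the large cells specialised for gas exchange. The 34 genes were divided by textbook knowledge into 21 pan-endothelial, 9 capillary, 3 large-vessel and 1 lymphatic gene, although several are shared between vessel types. All 34 are annotated as protein coding in GRCm38.

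The values are RPKM, which divide a gene's reads by its length in kilobases and by the library's depth. The spacing of low values gave a depth of 24.5 M reads at P28 and 17.6 M reads at P7. Recovered reads over the gene rows summed to less, 7.06 M at P28 and 4.58 M at P7. The 34 genes together took 4274 reads at P28 and 6820 at P7. Each interval below is a 95% exact (Clopper-Pearson) interval of the ratio of P28 over P7, computed from recovered read numbers. Such an interval leaves out the spread between animals, which single libraries cannot show, and no test was possible, so "lower" and "higher" compare these 2 libraries. A gene is called lower where its whole interval lay below 1 and higher where it lay above 1. Xist had 0.245 RPKM at P28 and 52.7 at P7, and the Y-linked gene Ddx3y had 4.01 RPKM at P28 and 0 at P7. The libraries thus differed in transcripts that mark sex, and age and sex cannot be told apart. The labelled cell type was checked by its markers, with Sftpc (surfactant protein C) at 24085 RPKM at P28 and 13343 at P7, and all 11 type 2 markers present. The airway gene Scgb1a1 was also high, at 18104 RPKM at P28 and 6764 at P7, so this check does not show a pure preparation.

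Since endothelial genes are known to be controlled through ETS factors, and Erg is one of the 34 genes, the bases before the transcription start are shown for 5 genes, with ratios from 0.206 (Emcn) to 1.53 (Ly6c1), that include windows with and without a match. The sequences come from RefSeq (GRCm38.p6), which held starts for 16 of the 34 genes. Each line gives the 250 bases before an annotated start, 5′ to 3′, with matches to the ETS core CNGGAAG (either strand) in capitals. Emcn is at chr3:137340828-137341077 (plus strand), Flt1 at chr5:147726012-147726261 (minus strand), Car4 at chr11:84957504-84957753 (plus strand), Cldn5 at chr16:18776597-18776846 (plus strand) and Ly6c1 at chr15:75048838-75049087 (minus strand).
Emcn: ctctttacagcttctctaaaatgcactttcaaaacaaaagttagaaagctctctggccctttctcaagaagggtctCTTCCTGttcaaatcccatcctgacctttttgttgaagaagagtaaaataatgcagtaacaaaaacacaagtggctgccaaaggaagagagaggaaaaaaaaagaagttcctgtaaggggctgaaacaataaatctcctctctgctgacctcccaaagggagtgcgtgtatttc
Flt1: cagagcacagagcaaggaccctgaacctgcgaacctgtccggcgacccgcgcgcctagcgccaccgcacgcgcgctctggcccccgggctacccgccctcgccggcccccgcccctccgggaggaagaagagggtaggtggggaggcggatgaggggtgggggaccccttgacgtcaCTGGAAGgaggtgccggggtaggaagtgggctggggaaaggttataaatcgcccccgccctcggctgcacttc
Car4: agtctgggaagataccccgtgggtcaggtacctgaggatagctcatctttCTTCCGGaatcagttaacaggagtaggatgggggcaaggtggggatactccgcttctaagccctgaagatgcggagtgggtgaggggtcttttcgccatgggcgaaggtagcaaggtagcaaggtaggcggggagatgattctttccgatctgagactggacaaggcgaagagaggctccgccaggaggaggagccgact
Cldn5: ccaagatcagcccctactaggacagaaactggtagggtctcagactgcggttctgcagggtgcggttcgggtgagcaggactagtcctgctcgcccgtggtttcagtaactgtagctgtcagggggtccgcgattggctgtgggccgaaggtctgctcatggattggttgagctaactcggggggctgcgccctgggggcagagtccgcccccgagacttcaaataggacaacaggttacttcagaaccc
Ly6c1: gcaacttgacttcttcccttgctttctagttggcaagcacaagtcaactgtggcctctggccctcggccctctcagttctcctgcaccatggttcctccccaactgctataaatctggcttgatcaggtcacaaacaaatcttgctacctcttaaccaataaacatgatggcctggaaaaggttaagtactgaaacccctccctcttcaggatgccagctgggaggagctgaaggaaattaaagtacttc

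Emcn, Flt1 and Car4 held 1 match each in these windows, and Cldn5 and Ly6c1 held none. Over all 16 genes with a listed start, 11 had a match in at least 1 of their windows, and 12 of their 21 windows (57.1%) held one, against 26.6% of all 32851 windows in the RefSeq table. The windows that overlapped annotated exons most were those of Flt4 (250 of 250 bases), Tie1 (212), Calcrl (145) and a further Ly6c1 window (83). Robo4 (75) and Clec14a (32) came next, and of these windows only that of Ly6c1 held no match. The SOX core AACAAT, searched on both strands, was in 4 of the 21 windows (19%) and in 9.42% of all windows, and 1 of those 4 was that of Emcn. The 11 genes with an ETS match had ratios of 0.173 to 0.516 (median 0.369), and the 5 without had ratios of 0.223 to 1.53 (median 0.484). These ranges overlapped, with the lower ratio of Cldn5 and the ratio above 1 of Ly6c1 both in the group without a match. A match describes letters and is not a binding site.

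Endothelial transcripts were present in both libraries and were lower at P28 in nearly the whole set. Of the 34 genes, 28 (82.4%) were called lower at P28, 2 higher and 4 had intervals that held 1. Over all 16505 genes with a read and a known length, 25.5% were called lower and 12.4% higher. Among the 12755 genes with at least as many reads as the least-read member (17 over both libraries), these shares were 31.3% and 15.4%. For 13 of the 34 (38.2%) the whole interval lay below 0.5, against 3.38% of all genes and 3.91% of those with 17 reads or more. The median ratio was 0.428 over the 34 genes and 0.907 over all genes. The library totals differed, at 143071 RPKM at P28 and 108758 at P7. Much of this difference lay in Sftpc (24085 RPKM at P28, 13343 at P7), Scgb1a1 (18104, 6764) and Lyz2 (5809, 1635). Setting the totals equal multiplied the ratio of every gene by 0.76. With equal totals the medians of the 34 genes and of all genes became 0.326 and 0.689. On that scale 30 of the 34 were called lower and 1 higher, where 49.5% and 3.76% of all genes were. With bulk RNA, fewer endothelial cells and less of these RNAs per cell cannot be told apart.

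Levels were low throughout. At P28 the 34 genes ranged from 0.0736 to 11.2 RPKM with a median of 0.861, and at P7 from 0.138 to 12.4 RPKM with a median of 2.33. At P28, 16 genes reached 1 RPKM, and at P7 25 did, the same 25 that passed a filter of 1 RPKM in either library. Of these, 9 were at least 2-fold lower and 0 higher on the scale of log2(RPKM + 1), where 1.96% of 9653 genes were lower and 1.18% higher. With equal totals 13 were lower on this scale, beside 4.02% of all genes lower and 0.642% higher. With equal upper quartiles, or with the median of all genes set to 0, 6 were lower and 1 higher. That filter admitted 9 genes through their P7 value alone, so the full set of 34 is used here. Summed over the set, the level was 65.3 RPKM at P28, or 0.0457% of the library total, and 110.2 RPKM at P7, or 0.101%.

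**Figure D1:**
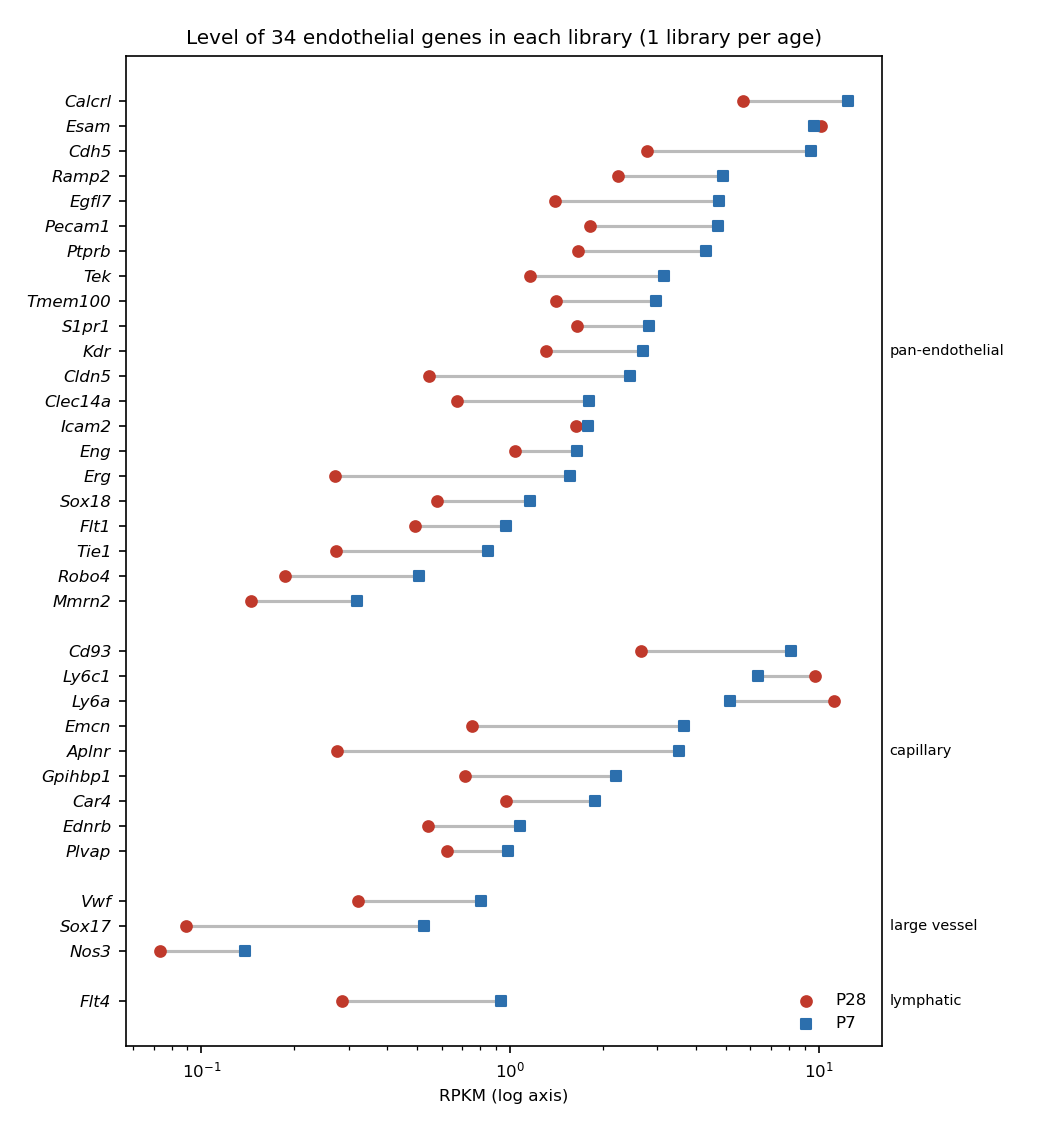
RPKM (log axis) of the 34 endothelial genes at P28 (red circles) and P7 (blue squares), 1 library each, grouped by vessel type and ordered by P7 level. The P28 value lies left of the P7 value for 31 genes and right of it for Esam, Ly6c1 and Ly6a.

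Of the 3 transcription factors, Erg and Sox17 had ratios below those of all other members except Aplnr, while Sox18 lay above the median of the set. Erg, the ETS factor that maintains endothelial identity (chromosome 16, 95359169 to 95586593, minus strand, GRCm38), had 0.27 RPKM or 23 reads at P28 and 1.56 RPKM or 95 reads at P7, a ratio of 0.173 (0.105 to 0.276). Sox17, a factor of arterial endothelium (chromosome 1, 4490931 to 4497354, minus strand), had 0.0894 RPKM or 9 reads at P28 and 0.527 RPKM or 38 reads at P7, a ratio of 0.17 (0.0721 to 0.357). An annotated gene model, Gm37587, overlaps 16.8% of the Sox17 exon bases, and nothing states that counting used strand or unique assignment. Sox18, a related factor of vascular and lymphatic development, had 0.578 RPKM at P28 and 1.16 at P7, a ratio of 0.499 (0.28 to 0.876). All 3 factors were called lower, and for Erg and Sox17 the whole interval lay below 0.5.

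Of the receptor kinases and their phosphatase 6 of 6 were called lower, with ratios between 0.306 and 0.509. Kdr, the main signalling receptor for VEGF-A, had 1.31 RPKM at P28 and 2.7 at P7, from 200 reads at P28 and 296 at P7 (ratio 0.484, 0.402 to 0.581). Flt1, which binds VEGF-A and limits its access to Kdr, had 0.492 RPKM at P28 and 0.967 at P7 (ratio 0.509, 0.374 to 0.689). The level of Kdr was 2.65 times that of Flt1 at P28 and 2.79 times at P7, so this pair kept nearly the same proportion. Flt4, the receptor of lymphatic endothelium for VEGF-C, was lower still, with 0.286 RPKM at P28 and 0.934 at P7 (0.306, 0.207 to 0.445). Its interval overlapped those of Kdr and Flt1. Tek, the receptor of the angiopoietins, had 1.16 RPKM at P28 and 3.14 at P7, a ratio of 0.369 (0.297 to 0.456). Its partner Tie1, an orphan receptor that modulates Tek, had 0.273 RPKM at P28 and 0.849 at P7, a ratio of 0.321 (0.194 to 0.518). Ptprb, the phosphatase that dampens Tek signalling, had 1.66 RPKM or about 485 reads at P28 and 4.31 RPKM or about 902 reads at P7 (ratio 0.385, 0.344 to 0.43). The intervals of Tek, Tie1 and Ptprb overlapped each other.

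Receptors coupled to G proteins, with their partner Ramp2, were called lower in 5 of 5 cases. Aplnr, the apelin receptor and a marker of general capillary cells (chromosome 2, 85136225 to 85139923, plus strand), had the lowest ratio of the 34. It had 0.274 RPKM or 24 reads at P28 and 3.52 RPKM or 221 reads at P7, a ratio of 0.0778 (0.0488 to 0.119). Only the intervals of Sox17 and Erg, among the other members, overlapped that of Aplnr. Calcrl, the receptor subunit for adrenomedullin, was the most abundant of the 34 at P7, with 5.68 RPKM at P28 and 12.4 at P7 (0.458, 0.415 to 0.505). Ramp2, the membrane partner that makes Calcrl an adrenomedullin receptor, had 2.24 RPKM at P28 and 4.88 at P7, a ratio of 0.458 (0.33 to 0.633). The Calcrl level was 2.54 times the Ramp2 level in both libraries. Ramp2 shares 33.4% of its exon bases with the neighbouring gene Vps25 on the same strand. S1pr1, the sphingosine-1-phosphate receptor that stabilises junctions, had 1.65 RPKM at P28 and 2.81 at P7 (0.587, 0.459 to 0.75). Ednrb, the endothelin receptor that marks aerocytes, had 0.542 RPKM at P28 and 1.08 at P7 (0.5, 0.352 to 0.708). Aplnr stood at 0.506 times the Ednrb level at P28 and 3.25 times at P7, so the order of these 2 capillary receptors was the opposite in the 2 libraries.

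Junction and adhesion genes split, with 3 of 5 called lower and 2 with intervals that held 1. Cdh5, VE-cadherin, the defining adhesion molecule of endothelial junctions (chromosome 8, 104101625 to 104144511, plus strand), had 2.77 RPKM or 272 reads at P28 and 9.44 RPKM or 663 reads at P7. Its ratio was 0.294 (0.254 to 0.339). Cldn5, the claudin of endothelial tight junctions, had 0.546 RPKM or 19 reads at P28 and 2.45 RPKM or 61 reads at P7 (ratio 0.223, 0.126 to 0.378). Pecam1 (CD31), an adhesion molecule also carried by platelets and leukocytes, had 1.81 RPKM at P28 and 4.7 at P7 (0.384, 0.312 to 0.471). Esam, an adhesion molecule of endothelial tight junctions and platelets (chromosome 9, 37528078 to 37538319, plus strand), had 10.2 RPKM at P28 and 9.68 at P7, a ratio of 1.06 (0.917 to 1.23). With equal totals the Esam ratio became 0.805 (0.697 to 0.932), below 1. The Cdh5 level was 0.271 times that of Esam at P28 and 0.976 times at P7. Icam2, a ligand for leukocyte integrins, had 1.64 RPKM at P28 and 1.79 at P7, from 46 reads at P28 and 36 at P7. Its ratio of 0.915 had an interval of 0.579 to 1.46, too wide to place it on either side of 1.

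Surface glycoproteins were called lower in 5 of 6 cases. Emcn (endomucin, an anti-adhesive sialomucin of capillaries and veins) had 0.751 RPKM or 27 reads at P28 and 3.65 RPKM or 94 reads at P7, a ratio of 0.206 (0.129 to 0.318). Cd93, a lectin-like receptor prominent in general capillary cells and also found on myeloid cells, had 2.65 RPKM at P28 and 8.15 at P7 (0.325, 0.289 to 0.364). Clec14a, a related C-type lectin of vessels, had 0.672 RPKM at P28 and 1.8 at P7 (0.373, 0.278 to 0.496). For Emcn, Cd93 and Clec14a the whole interval lay below 0.5. Robo4, a guidance-type receptor that stabilises vessels, had 0.187 RPKM or 17 reads at P28 and 0.508 RPKM or 33 reads at P7, with a ratio of 0.369 (0.193 to 0.682). Eng (endoglin), the co-receptor for BMP9 that is also made by mesenchymal cells, had 1.04 RPKM at P28 and 1.65 at P7 (0.627, 0.455 to 0.861). Plvap, which forms the diaphragms of capillary fenestrae and caveolae, had 0.625 RPKM or 31 reads at P28 and 0.986 RPKM or 35 reads at P7, and the interval of its ratio (0.634, 0.378 to 1.06) held 1. Tmem100, a transmembrane protein acting downstream of BMP9 and ALK1, had 1.41 RPKM at P28 and 2.96 at P7 (0.475, 0.338 to 0.663).

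Among secreted and vessel-wall proteins all 3 were called lower. Egfl7, an extracellular matrix factor whose gene hosts the microRNA miR-126, had 1.4 RPKM at P28 and 4.75 at P7 (0.295, 0.207 to 0.415). Other annotated genes overlap 11.2% of its exon bases. Vwf, von Willebrand factor, highest in large vessels and also made by megakaryocytes, had 0.322 RPKM or 70 reads at P28 and 0.803 RPKM or 125 reads at P7 (0.401, 0.295 to 0.542). Mmrn2, a matrix ligand of Cd93 and Clec14a, had 0.145 RPKM or 14 reads at P28 and 0.318 RPKM or 22 reads at P7 (0.456, 0.216 to 0.932). Nos3, the endothelial nitric oxide synthase, was the least abundant member at 0.0736 RPKM or about 7 reads at P28 and 0.138 RPKM or about 10 reads at P7, and could not be placed (0.535, 0.162 to 1.46). Antisense genes, Atg9b among them, overlap 32.3% of its exon bases, and their reads cannot be told apart from those of Nos3.

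The GPI-anchored surface proteins, all counted as capillary genes, had ratios on both sides of 1. Car4 (carbonic anhydrase 4), the classic aerocyte enzyme, had 0.97 RPKM at P28 and 1.88 at P7 (0.516, 0.314 to 0.839). Gpihbp1, which carries lipoprotein lipase across capillary endothelium, had 0.714 RPKM or 14 reads at P28 and 2.21 RPKM or 31 reads at P7 (0.323, 0.159 to 0.626). Ly6a (Sca-1, also found on blood stem cells, lymphocytes and some airway epithelial cells) had 11.2 RPKM or 275 reads at P28 and 5.16 RPKM or 91 reads at P7. Its ratio of 2.16 (1.7 to 2.77) was the highest of the set and stayed above 1 with equal totals, at 1.65 (1.29 to 2.11). Ly6c1, a related antigen of capillary cells and monocytes, had 9.72 RPKM at P28 and 6.36 at P7 (1.53, 1.16 to 2.01), and with equal totals its interval of 0.883 to 1.52 held 1. Ly6a and Ly6c1 lie 46 kb apart on chromosome 15, with Gpihbp1 548 kb further along.

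The 2 Ly6 genes are also among the members whose reads are hardest to assign. Of the distinct 31-base words in their annotated transcripts, 31.9% for Ly6a and 46.8% for Ly6c1 occur in another gene, chiefly each other, Ly6c2 and Ly6i. This share was 31.7% for Ramp2, close to that of Ly6a, 25.1% for Nos3 and 15.7% for Sox17. For 24 of the 34 genes it was under 1%. The longest identical run of the 2 coding sequences is 48 bases, at chr15:74995283-74995330 in Ly6a and chr15:75045423-75045470 in Ly6c1 (GRCm38, minus strand). It is shown because its bases alone cannot tell the 2 genes apart.
Ly6a and Ly6c1: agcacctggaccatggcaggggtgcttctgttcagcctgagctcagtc

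**Figure D2:**
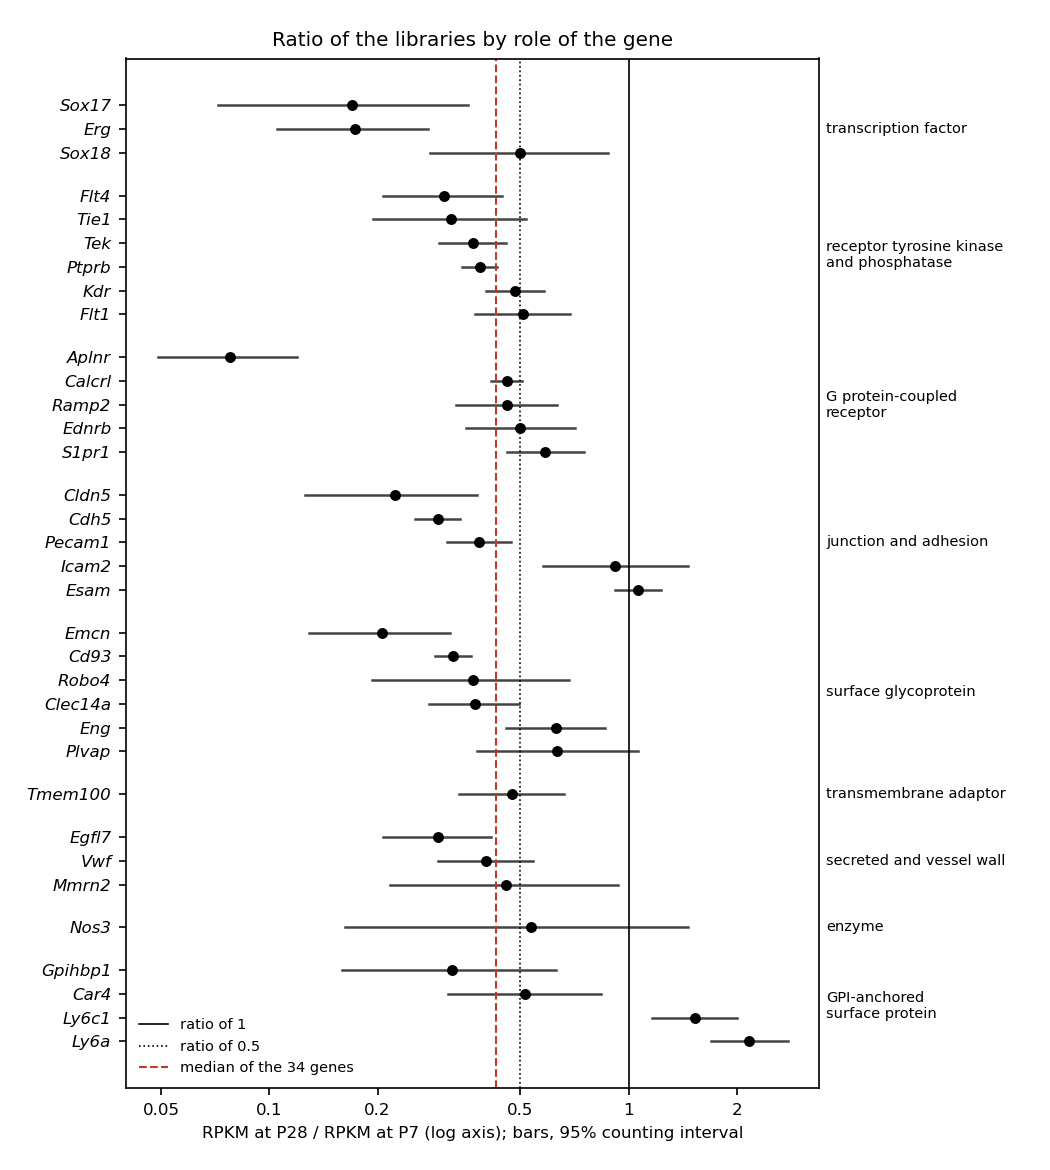
Ratio of RPKM at P28 over P7 (log axis) for the 34 genes by role, with 95% counting intervals as bars. The solid line marks 1, the dotted line 0.5 and the dashed line the median ratio of 0.428. Intervals lie wholly left of the solid line for 28 genes and wholly right of it for Ly6c1 and Ly6a.

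The ratios of some members lay further from the median of the set than their intervals reached, though these intervals may be too narrow where reads are PCR copies. The median ratio of 0.428 lay inside the intervals of 20 of the 34. The intervals of 8 genes lay wholly below it, namely Aplnr, Sox17, Erg, Emcn, Cldn5, Cdh5, Egfl7 and Cd93. Those of 6 genes lay wholly above it, namely S1pr1, Eng, Icam2, Esam, Ly6c1 and Ly6a. Esam, Ly6a and Ly6c1 were the 3 most abundant members at P28, and together, chosen after their values were seen, they made up 47.6% of the summed level at P28 and 19.2% at P7. The other 31 genes summed to 34.2 RPKM at P28 and 89 at P7, a ratio of 0.384.

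By vessel type, every class held genes called lower. Of the 21 pan-endothelial genes 19 were lower and 0 higher, with a median ratio of 0.456 and a summed level of 37.2 RPKM at P28 and 74.8 at P7. The 9 capillary genes had 6 lower and 2 higher, a median ratio of 0.5, and a sum of 27.4 RPKM at P28 and 33 at P7. Most of this sum at P28 came from the genes called higher, Ly6a (11.2 RPKM) and Ly6c1 (9.72 RPKM). At P7 these had 5.16 and 6.36 RPKM, so the class sum does not stand for the other capillary genes. Within this class, the general capillary gene Aplnr and the shared marker Emcn had the lowest ratios, and the intervals of the other 8 capillary genes, Emcn included, lay wholly above that of Aplnr. The interval of Gpihbp1 overlapped those of the aerocyte genes Ednrb and Car4. The 3 large-vessel genes had 2 lower and 1 not placed, a median ratio of 0.401 and a sum of 0.485 RPKM at P28 and 1.47 at P7. The lymphatic gene Flt4 had a ratio of 0.306. The ranges of the 3 larger classes overlapped, at 0.173 to 1.06 for pan-endothelial, 0.0778 to 2.16 for capillary and 0.17 to 0.535 for large-vessel genes.

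A list of 40 further endothelial genes, of which 39 were in the table, was read beside the 34. In it 28 were called lower, 1 higher and 10 not placed, with a median ratio of 0.481. Over all genes with a read and a known length, 25.5% were called lower and 12.4% higher. Aqp1, the water channel of lung capillaries, had 3.49 RPKM at P28 and 18.1 at P7 (0.193, 0.166 to 0.224). Cd34, a sialomucin of capillaries and fibroblasts, had 0.993 RPKM at P28 and 3.14 at P7 (0.316, 0.23 to 0.431). Lyve1, a hyaluronan receptor of lymphatic and immature capillary cells, had 1.31 RPKM at P28 and 3.94 at P7 (0.332, 0.253 to 0.433). Sema3c, Tspan7 and Efnb2 had ratios of 0.46, 0.495 and 0.503. Thbd (thrombomodulin) had 4.58 RPKM at P28 and 4.8 at P7, with an interval of 0.824 to 1.11. Slco2a1, a prostaglandin transporter, was the most abundant of the list, with 27.7 RPKM at P28 and 32.9 at P7 (0.842, 0.807 to 0.878). Fli1, an ETS factor close to Erg and named after its value was seen, had 12 reads at P28 and 54 at P7 (0.159, 0.0775 to 0.301). Scarf1, a scavenger receptor also named after its value was seen, was the gene called higher, with a ratio of 2.01 (1.36 to 3.03).

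Markers of other cell types were read in the same libraries. Over all genes with a read and a known length, 25.5% were called lower and 12.4% higher. With equal totals these shares were 49.5% and 3.76%. Several of the counts below lie near these shares. Pericyte and smooth muscle genes, the wall cells of vessels, had 6 of 10 called lower and 0 higher, and their sum was 1.23 RPKM at P28 and 4.83 at P7, with Kcnj8 at 0 in both libraries. Fibroblast genes had 9 of 14 lower and 4 higher, and a sum of 34.4 RPKM at P28 and 66 at P7. Elastic fibre genes were among the lower ones, with Mfap4 at 14.4 RPKM at P28 and 19.6 at P7. Eln had 3.77 RPKM at P28 and 10.2 at P7, and Fbln5 had 2.08 at P28 and 10.6 at P7. Inmt, Pdgfra, Dcn and Lum, named after their values were seen, were higher. Type 1 cell genes had 10 of 11 lower and 0 higher, a sum of 292 RPKM at P28 and 489 at P7, and Ager at 89.1 RPKM at P28 and 119 at P7. Type 2 cell genes had 2 of 11 lower and 8 higher, with a sum of 29463 RPKM at P28 and 16864 at P7. With equal totals 6 type 2 genes were lower and 5 higher, and 11 of 11 type 1 genes were lower. Of 12 leukocyte genes 3 were lower and 2 higher (Lyz2, also a type 2 cell gene, and Cd68), with Ptprc at 1 read at P28 and 9 at P7 and Marco and C1qa at 0 in both. Others were not near 0. Cd79b had 3.02 RPKM or 89 reads at P28 and 2.84 RPKM or 60 reads at P7. Csf1r, called lower, had 1.49 RPKM or 142 reads at P28 and 2.23 RPKM or 152 reads at P7. The summed leukocyte level of 5815 RPKM at P28 and 1642 at P7 was nearly all Lyz2, at 5809 RPKM at P28 and 1635 at P7. Erythroid and platelet genes had 2 lower and 0 higher of 9 with recovered read numbers. Their sum was 3.08 RPKM at P28 and 30.6 at P7, with the platelet gene Pf4 at 1.94 RPKM at P28 and 2.12 at P7 and the globin gene Hbb-b1 at 0.348 RPKM at P28 and 17 at P7. The globins share reads among near-identical copies. Mesothelial genes had 1 of 5 lower and 3 higher, with a sum of 6.1 RPKM at P28 and 7.8 at P7. Airway genes had 1 of 8 lower and 4 higher, with a sum of 18757 RPKM at P28 and 7212 at P7. Most of this sum was Scgb1a1, at 18104 RPKM at P28 and 6764 at P7. With equal totals 2 airway genes were lower and 2 higher. Kcnj8, Ptprc, Cd68, Marco, C1qa and Pf4 were also named after their values were seen. The part of these cells in the endothelial values was not tested.

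**Figure D3:**
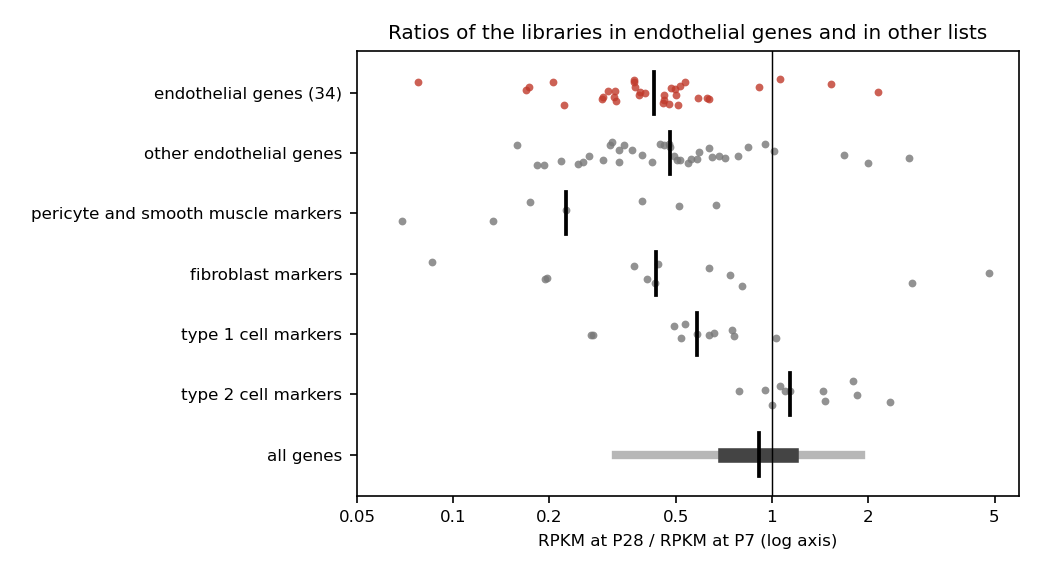
Ratio of RPKM at P28 over P7 (log axis) for the 34 endothelial genes (red) and 5 other lists (grey), with medians as black bars. Points are genes with a read in both libraries and at least 10 in all. The last row gives all genes with the middle 50% as a dark bar and the range from the 5th to the 95th percentile as a pale bar. The median is 0.428 for the endothelial genes and 0.913 for all genes drawn.

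**Figure D4:**
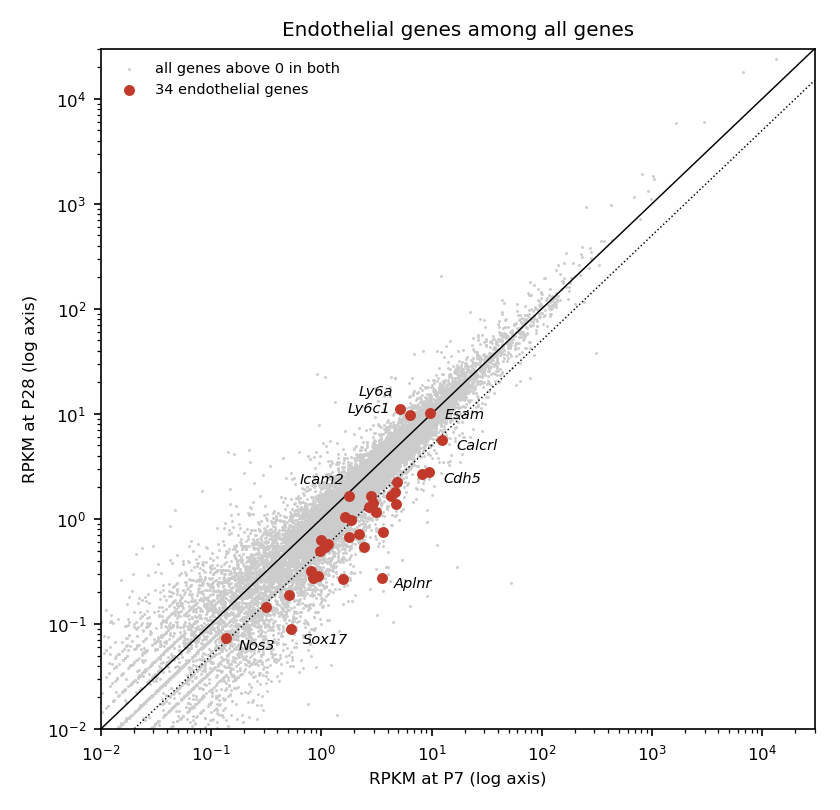
RPKM at P28 against RPKM at P7 (log axes) for all genes above 0 in both libraries (grey) and the 34 endothelial genes (red). The solid line marks equal values and the dotted line a ratio of 0.5. Most red points lie below the solid line, and Ly6a, Ly6c1 and Esam lie on or above it, while the densest grey cloud follows it.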

How the data were processed

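RPKM values (reads divided by gene length in kilobases and by depth) were deposited by the authors for 24369 gene rows in 1 table, with 1 column for each of 2 libraries, per the file headers. RNA was extracted as total RNA and made into libraries with the Nextera XT kit for paired-end reads, per the labels' protocols. TopHat, TopHat2 2.0.9 and the build GRCm38 (mm10) are listed in the submitters' processing notes, and the program that computed RPKM is not given in the sources used here. Each column matched the title of 1 sample, and 0 columns were left unused.

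Rows were matched to the 34 symbols by exact name. The 2 values of a gene with the same read number in both libraries differ by a fixed factor of 0.716127 (P28 over P7), found from 451 genes. For 28 of the 34 members the remaining ratio was a ratio of whole numbers with a denominator of at most 300, within the rounding of 6 printed digits, and GENCODE M21 transcript lengths set the multiple. For 3 of these (Sox17, Icam2 and Robo4) the implied length was over 10% from any annotated one. The other 6 (Cd93, Ly6c1, Nos3, Calcrl, Esam and Ptprb) took read numbers from length alone, and those are approximate. A step was worth 0.0407 RPKM at P28 and 0.0569 at P7 on 1 kilobase. Among low genes, 55.5% (of 2288, P28) and 60.8% (of 2108, P7) lay within 0.05 of a whole read at these steps. A step may be a read or a read pair. Clopper-Pearson 95% intervals of the ratio cover counting error only, and take each read as independent. Reads amplified by PCR and carrying no molecular identifier may be copies of the same molecule, so these intervals may be too narrow. The procedure was tested on simulated data, drawn only for genes with a single transcript length and always on whole reads. That test does not cover genes with several lengths, or values off the steps.

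With 1 library per age no test was possible. A gene was called lower or higher where its whole interval lay below or above 1. Log2((RPKM + 1)/(RPKM + 1)) with a 2-fold call and a filter of 1 RPKM was kept as well. The 10 marker lists, the subtype of each member and all members were chosen with earlier results of these data known. All 34 members were named, with the 8 other endothelial genes and 4 ligands of highest mean RPKM, and Xist and Ddx3y. In the other lists only some of the 3 highest genes were named. Genes named after their values were seen are marked so in the text. Python 3.11.15, pandas 2.3.3, SciPy 1.17.1 and matplotlib 3.10.9 were used.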

Additional observations from a re-analysis of the deposited data

How the results depend on the processing

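Of the 34 endothelial genes, 28 had intervals below 1 as deposited, 30 with equal totals, 28 with equal upper quartiles and 27 with the median ratio of all genes set to 1, and the median ratio of 0.428 became 0.326, 0.458 and 0.472. These scalings of the full list were chosen after seeing the data. Over all genes with a read and a known length, 25.5% had intervals below 1 as deposited and 49.5% with equal totals. This share is not given for the other settings. The summed level, with a ratio of 0.593, had 0.451 with equal totals, 0.634 with equal upper quartiles, 0.548 without Esam, and 0.596 over the 22 genes with a single transcript length, of which 17 had intervals below 1. On the log2(RPKM + 1) scale, 9 members and 189 genes were 2-fold lower and 114 genes higher, with a median of -0.86 over the members that passed 1 RPKM. A pseudocount of 0.1 gave 15 members, 530 lower and 226 higher genes. A pseudocount of 5 gave 0 members, a median of -0.32, and 34 lower and 39 higher genes. A filter of 5 RPKM left 6 members, of which 3 were lower, with 93 lower and 73 higher genes, and the capillary median became 0.54, against -0.73. Equal totals gave 13 members (all genes, 4.02% lower and 0.642% higher), 388 lower and 62 higher genes. Equal upper quartiles gave 6 members lower and 1 higher (159 lower and 144 higher genes), and the median of all genes set to 0 gave 6 and 1 (151 and 144 genes). The cause of these shifts was not tested, beyond the fewer genes counted under the filter. Members that did not pass 1 RPKM, such as Flt4 and Vwf, had no call under that filter. No paired analysis was possible because each age had 1 library. At these depths a member with fewer than 20 reads in a library, such as Nos3, Gpihbp1, Mmrn2, Robo4, Sox17 or Cldn5 at P28, cannot show a modest difference.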

Other observations

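The ligands of the endothelial receptors were also measured in both libraries. Of 16 such genes, 7 had intervals wholly below 1 and 1, Vegfd (read under its older symbol and named after its value was seen), wholly above. Over all genes with a read and a known length, 25.5% lay wholly below 1 and 12.4% wholly above. Vegfa, the ligand of Kdr and Flt1, was the most abundant, at 20 RPKM at P28 and 40.8 at P7 (ratio 0.489, interval 0.45 to 0.531). Vegfb, a ligand of Flt1, had 4.44 RPKM at P28 and 5.09 at P7, and its interval of 0.676 to 1.13 held 1. Edn3, a ligand of Ednrb, had 1.16 RPKM at P28 and 2.71 at P7 (ratio 0.429, 0.324 to 0.565). Slit2, a secreted guidance factor that binds receptors of the Robo family, had 0.875 RPKM at P28 and 2.47 at P7 (0.354, 0.301 to 0.416). Whether it acts on Robo4 was not tested. The Aplnr ligands were named after their values were seen. Apln had 21 reads at P28 and 51 at P7, and Apela had 0 reads at P28 and 16 at P7. The counting interval of the Apela ratio reached up to 0.186. The Tek ligands Angpt1 and Angpt2, also named after their values were seen, gave 13 reads at P28 and 16 at P7 for Angpt1, and 20 reads at P28 and 43 at P7 for Angpt2, and Angpt2 alone of this pair had an interval wholly below 1.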
